A study of Mus musculus with 27 samples.

Results

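Ischemia-reperfusion (IR) was compared with sham surgery in the liver of wild-type mice (WT), with 4 RNA-seq libraries of WT IR liver and 4 of WT sham liver. These 8 libraries were chosen by their titles and make up 8 of the 27 samples of the series and 8 of its 16 liver RNA libraries. The remaining 8 liver libraries came from mice with the genotype Alb-cre:Aclyf/f (KO), 4 after IR and 4 after sham. In these mice the albumin promoter drives Cre, so that the floxed Acly gene is recombined in hepatocytes and not by design in other liver cells. Liver was taken 24 hours after surgery from what the submitters call the broader zone. The labels also tag the IR livers as hypoxia-reperfusion and the sham livers as normoxia. The strain, age and sex of the mice, the length of the ischemia and whether the WT mice carry floxed alleles are not given in the sources used here. Nothing in the labels ties each library to its own mouse, so the p-values measure the spread between these libraries, which may be technical.

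In liver IR the blood supply to part of the organ is stopped and then restored, and a sham operation opens the animal without stopping the flow. Loss of oxygen depletes ATP in hepatocytes, and the return of oxygen brings reactive oxygen species, cell death, activation of resident macrophages and entry of neutrophils. The surviving liver is known to raise acute phase and stress genes and to lower parts of its metabolic program in the following day. ATP citrate lyase, the product of Acly, makes acetyl-CoA from citrate for lipid synthesis and histone acetylation.

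The RNA files list 111462 Ensembl transcripts by identifier. Without a table that ties such identifiers to genes, the transcripts below have no gene names, their sequences are not shown, and no pathway or cell type marker was analysed here. Whether the tissue holds hepatocyte markers, or markers of entering blood cells that differ with IR, was therefore not tested. In bulk liver, fewer cells of a type and less RNA per cell cannot be told apart, and an isoform switch cannot be told apart from a change of the whole gene.

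The WT IR libraries held 43.39 to 44.6 M estimated counts and the WT sham libraries 42.8 to 43.77 M. Mean totals were 44.02 ± 0.604 M in WT IR and 43.38 ± 0.43 M in WT sham livers (SD, n = 4 each, two-sided exact permutation p = 0.2, adjusted p = 0.314 over 3 tests). Transcripts of at least 1 TPM (transcript abundance corrected for length and scaled to the library) numbered 16699 ± 520 in WT IR and 16318 ± 339 in WT sham livers (SD, n = 4 each, exact permutation p = 0.286, adjusted p = 0.314). The share of TPM in the 100 most abundant transcripts was 69.94 ± 2.75% in WT IR and 71.68 ± 1.76% in WT sham livers (SD, n = 4 each, exact permutation p = 0.314, adjusted p = 0.314). None of these 3 differences had an exact permutation p under 0.05, and the smallest p this design allows is 0.0286.

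The sham libraries differed among themselves more than the IR libraries, and WT sham 1 and WT sham 4 stood apart. CPM are counts scaled to the library total times its TMM scaling factor. On the first principal component of the 8 WT libraries, which held 19.1% of the variance in log2 CPM, the WT IR libraries lay at 62.7, 74.5, 58.7 and 34.2. WT sham 1 lay at 36.2, among the IR libraries, and WT sham 2, 3 and 4 lay at -71.6, -85.6 and -109. On the second component, which held 17.7% of the variance, WT sham 4 lay at 136 and WT sham 1 at 45.9, against -89.6 and -83.8 for WT sham 2 and 3, and the WT IR libraries lay between -18.4 and 14.7. The share of RNA held by the transcripts that responded, given further below, did not set WT sham 1 or WT sham 4 apart. Both libraries took part in choosing those transcripts, so this share could not show whether they respond differently. Among transcripts called without it, WT sham 1 kept the direction in 78.8% of the rises and 83% of the falls, the lowest of the WT libraries. The count of calls and the fold change of each named transcript are therefore also given without WT sham 1 and without WT sham 4.

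After IR, 513 transcripts were higher and 326 were lower than after sham in WT liver, 839 in all of the 36041 tested (edgeR quasi-likelihood test over all 16 liver libraries, Benjamini-Hochberg adjusted p under 0.05). This is 2.33% of the transcripts tested, 1.42% higher and 0.905% lower. Most changes were small. Of the rises, 57.7% were under 2-fold, 27.3% between 2- and 4-fold and 7.41% between 4- and 8-fold, and 39 (7.6%) exceeded 8-fold. Of the falls, 58.9% were under 2-fold, 25.5% between 2- and 4-fold and 9.82% between 4- and 8-fold, and 19 (5.83%) exceeded 8-fold. The middle 50% of the rises had log2 fold changes of 0.54 to 1.51 and the middle 50% of the falls -1.5 to -0.56, against -0.3 to 0.28 over all transcripts tested. Without WT sham 1 the calls numbered 1097, with 691 higher and 406 lower, and 681 of the 839 were called again in the same direction. Without WT sham 4 they numbered 569, with 352 higher and 217 lower, and 501 of the 839 were called again. The count was lower by over 1.5 times without WT IR 1 (490), WT IR 2 (410), WT IR 3 (445) or WT sham 2 (491).

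**Figure D1:**
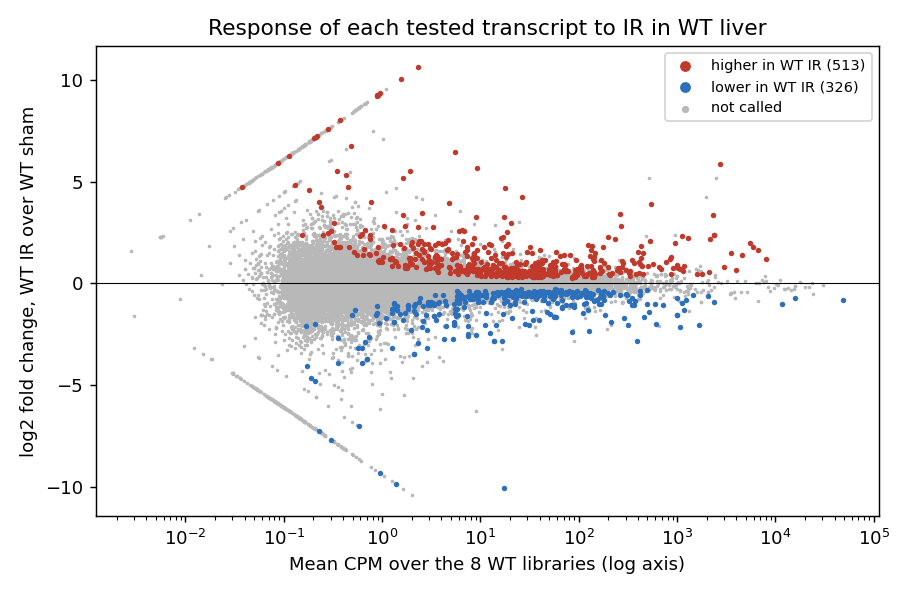
Each point is 1 tested transcript, with its mean CPM over the 8 WT libraries on a log axis and its log2 fold change of WT IR over WT sham. Red points are the 513 transcripts called higher in WT IR and blue points the 326 called lower (edgeR adjusted p under 0.05), and the points on the outer diagonals at the left are transcripts with almost no counts in 1 of the groups.

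The large folds sat mostly in scarce transcripts. Of the 39 rises over 8-fold, 7 had a mean of at least 10 CPM over the 8 WT libraries, and of the 19 falls over 8-fold, 1 did. No estimated count in any WT sham library was found for 11 of the 513 rises, against 114 such transcripts among all tested. A single fall, 1 of 326, had no estimated count in any WT IR library, against 96 among all tested. Transcripts under 1 TPM in both groups made up 75 of the 839 calls and 18571 of the 36041 tested. The filter used all 16 libraries, so the transcripts tested include some kept for their counts in KO livers. Their mean over the 8 WT libraries went down to 0 CPM, and a filter on only these 8 libraries kept 31541. The shares over all tested rest on this wider set.

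Calls became more frequent with the level of the transcript. In the lowest quintile by mean CPM 17 rose and 7 fell (0.333% called), in the middle quintile 48 rose and 30 fell (1.08%), and in the highest quintile, from 8.73 CPM upward, 334 rose and 216 fell (7.63%). The median standard error of the log2 fold change was 0.825 in the lowest quintile and 0.135 in the highest, and the median size of a called change was 4.62 and 0.643 log2 units there. How much of the larger error in scarce transcripts comes from depth was not tested. Among the 101 transcripts that averaged at least 1000 TPM over the WT IR and WT sham groups, 15 (14.9%) rose, with a median log2 fold change of 1.63, and 10 (9.9%) fell, with a median of -0.89. Among the 586 between 100 and 1000 TPM, 50 (8.53%) rose and 51 (8.7%) fell.

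Falls were the more frequent calls among short transcripts and rises among long ones. The rises had a median length of 2412 bases and the falls 1619 bases, against 2188 bases over all tested. In the shortest quintile, up to 834 bases, 64 rose and 77 fell, and in the longest quintile, from 3992 bases upward, 108 rose and 32 fell. The same order held among transcripts of at least 10 CPM, where 3.82% rose and 6.84% fell in the shortest quintile and 4.72% rose and 0.919% fell in the longest. The median log2 fold change of all transcripts of at least 10 CPM was -0.05 in the shortest quintile and 0.06 in the longest. These shares are a description, and the part of RNA quality or of kallisto's length model in them was not tested.

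**Figure D2:**
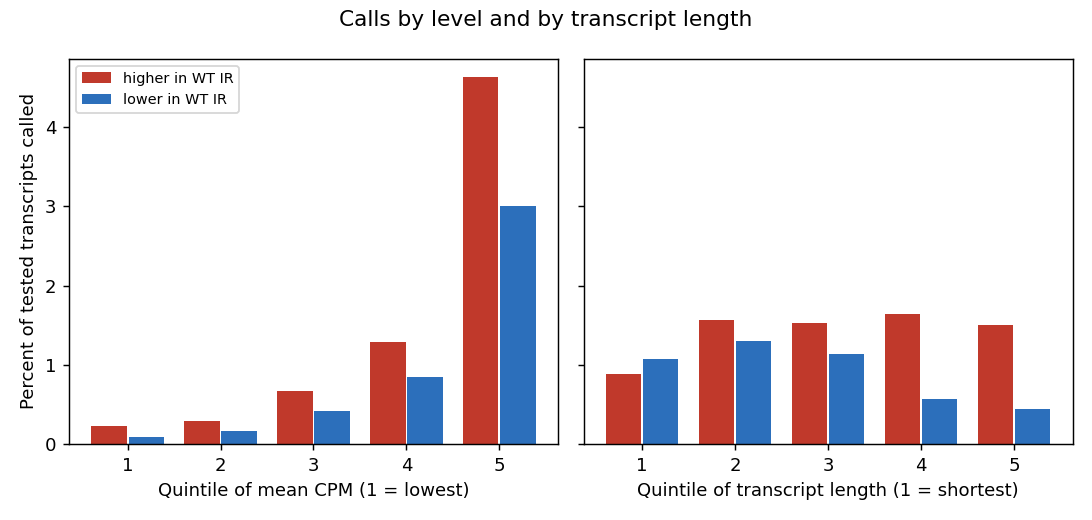
The bars give the percent of tested transcripts called higher (red) or lower (blue) in WT IR than in WT sham, by quintile of mean CPM at the left and by quintile of transcript length at the right. The highest quintile by level has 4.63% rises and 3% falls, and falls outnumber rises in the shortest quintile by length.

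The transcripts that rose after IR made up a larger share of the RNA of each WT IR library than of any WT sham library, and those that fell a smaller share. The 513 that rose held 9.02, 9.43, 8.75 and 6.93% of TPM in WT IR libraries 1 to 4, against 2.67, 2.57, 3.37 and 2.92% in WT sham libraries 1 to 4. The 326 that fell held 6.72, 5.68, 5.84 and 6.46% in WT IR libraries 1 to 4, against 11, 11.8, 9.81 and 11.3% in WT sham libraries 1 to 4. The groups do not overlap in either sum, which follows in part from choosing the transcripts on these libraries. A few abundant transcripts carried these sums, since the 10 with the largest TPM difference held 65% of the summed difference of the rises and 79% of that of the falls. A single transcript had a median TPM difference of 3.98 in the set that rose and 8.2 in the set that fell.

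The KO libraries did not enter the WT contrast itself, although they took part in its filter, its scaling and its estimate of spread. In them the transcripts that rose in WT held 8.48 ± 0.778% of TPM after IR and 2.89 ± 0.25% after sham, and those that fell in WT held 6.3 ± 0.619% after IR and 11.1 ± 1.19% after sham (SD, n = 4 each). The WT values were 8.53 ± 1.1% after IR and 2.88 ± 0.357% after sham for the rises, and 6.17 ± 0.495% and 11 ± 0.845% for the falls (SD, n = 4 each). The ranges of KO IR and KO sham libraries do not overlap for either set. The rises had a median log2 fold change of 0.7 in KO and 0.84 in WT, and the falls -1.01 in KO and -0.84 in WT, without a test of these medians. Since the sets were chosen for their size in WT, a smaller median in KO is no measure of a weaker response. The medians also rest on the TMM scaling described below and were not computed with library totals alone. Their order between KO and WT may therefore differ with another scaling.

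**Figure D3:**
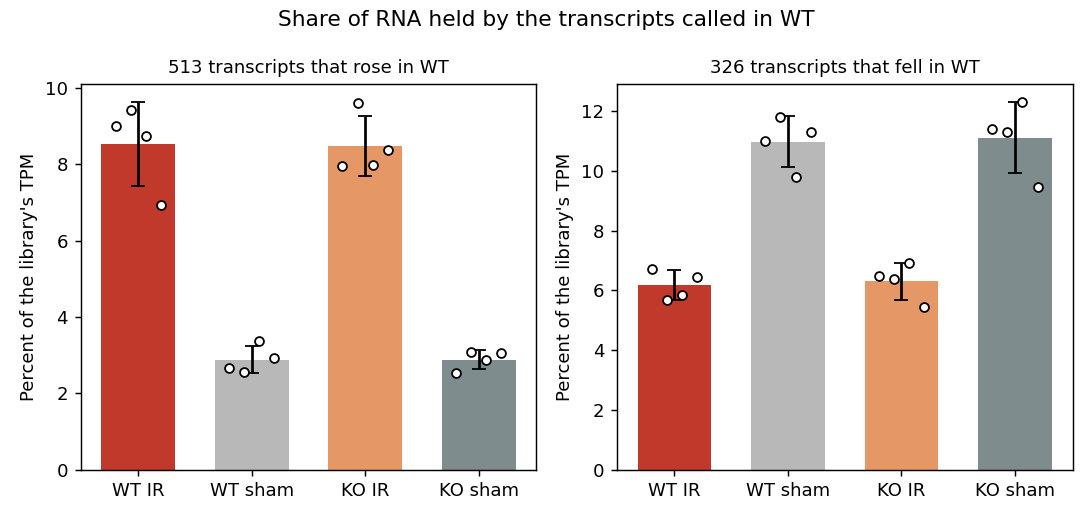
Points are single libraries, bars their group means and error bars the SD over 4 libraries, as the percent of a library's TPM held by the transcripts that rose (left) or fell (right) after IR in WT. The KO IR libraries lie between 7.95 and 9.61% for the rises, and the KO sham libraries between 2.54 and 3.08%.

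The response was also measured library by library. The fit was repeated leaving out 1 WT library, and the transcripts it called were then measured in that library against the mean of the opposite surgery. The libraries of the opposite surgery took part in those calls. The direction kept in the left-out library is therefore not independent of how the transcripts were chosen. In WT IR libraries 1, 2 and 3 the rises called without them had a median log2 difference of 0.93, 1.05 and 0.97, and 98.9 to 100% of them were higher than the sham mean. WT IR 4 had a median of 0.69 and the same direction in 99.2%. In WT sham 2, 3 and 4 the median difference was 0.9, 0.77 and 0.86, with 94.9 to 99.2% in the same direction. WT sham 1 had a median of 0.4 and the same direction in 78.8% of the 690 rises and 83% of the 405 falls. For the falls the other 7 libraries had the same direction in 96.2 to 98.8%. Among transcripts of at least 10 CPM, WT sham 1 kept the direction in 82.5% of the rises and 86.6% of the falls, and each other library in at least 96.9% of either. Among the falls the median difference was -0.77, -0.96, -0.95 and -0.69 in WT IR 1 to 4 and -0.51, -1.07, -0.5 and -0.78 in WT sham 1 to 4, so that WT sham 3 had the smallest sham difference there. The lists measured differ in length between libraries, from 270 to 690 rises and from 140 to 405 falls, so their medians are not over the same transcripts.

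**Figure D4:**
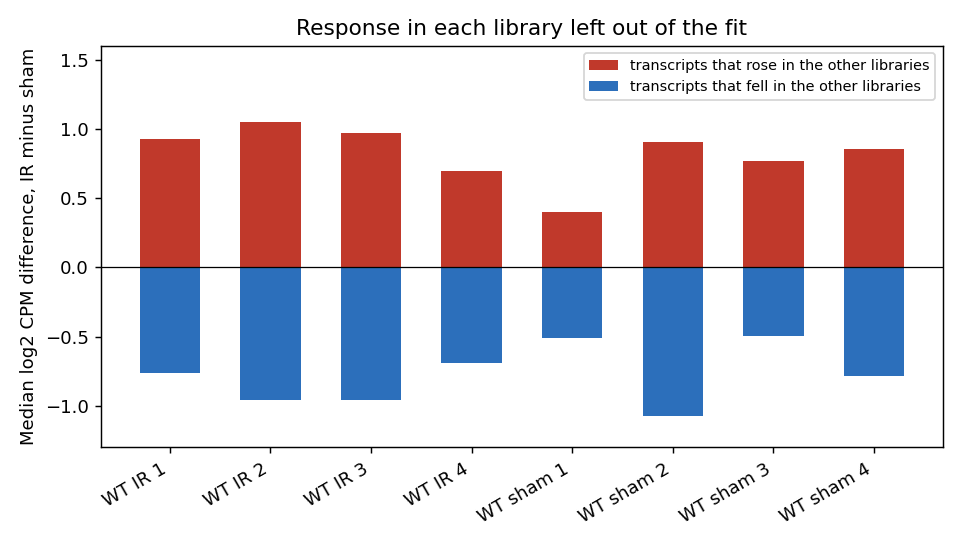
Each pair of bars is the library left out of the fit, with the median log2 CPM difference of IR minus sham in the transcripts that rose (red) or fell (blue) in the fit on the other libraries. The bars of WT sham 1 reach 0.4 and -0.51, and those of WT sham 2 reach 0.9 and -1.07.

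The libraries of WT IR liver lay closer together than those of WT sham liver. The median SD of log2 CPM over all transcripts tested was 0.356 in WT IR and 0.447 in WT sham, and 36.5% of transcripts had the larger variance in WT IR. Without WT sham 1 the sham median was 0.386, and without WT IR 4 the IR median was 0.314. In the called transcripts the medians were 0.174 in WT IR and 0.233 in WT sham. All 4 WT IR libraries were above all 4 WT sham libraries in CPM for 505 of the 513 rises and for 4.63% of all transcripts tested, and below them for 316 of the 326 falls and for 3.65% of all tested. The called transcripts were chosen on these 8 libraries, so neither their lack of overlap nor their smaller SD is independent of that choice.

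The differences between the KO and the WT response given below depend on the scaling. KO IR libraries 1 to 3 held 37.79, 37.9 and 38.22 M estimated counts and KO IR 4 held 44.35 M, and the TMM factors were 1.075 to 1.2 in KO IR, 0.8638 to 0.9848 in KO sham, 0.9218 to 1.017 in WT IR and 0.9345 to 0.9913 in WT sham libraries. Scaling by library totals alone is therefore given beside each difference. The TPM values are not scaled by the TMM factors, whereas the log2 fold changes come from edgeR on scaled counts. A ratio of mean TPM values can therefore differ from the log2 fold change given beside it.

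ENSMUST00000016168.8, a transcript of 2525 bases, rose with the smallest p of all. It stood at 99.4, 143, 99.1 and 96.3 TPM in WT IR libraries 1 to 4, against 26.1, 27.8, 35.2 and 34.4 TPM in WT sham libraries 1 to 4. Every WT IR library was above every WT sham library, and WT IR 2 was the highest. The fold was 3.39, a log2 fold change of 1.76 (SE 0.13, edgeR adjusted p = 4.79e-05). In KO livers it averaged 76.6 ± 4.11 TPM after IR and 29.4 ± 2.39 TPM after sham (SD, n = 4 each), and it rose there as well (log2 fold change 1.02, SE 0.13, edgeR adjusted p = 0.000157). The KO response minus the WT response was -0.74 log2 units (SE 0.18), which missed the threshold (edgeR adjusted p = 0.0916). It passed by DESeq2 (adjusted p = 0.00838) and with a filter of 10 CPM in 4 libraries (edgeR adjusted p = 0.0458). With library totals alone the difference was -0.49 (edgeR adjusted p = 0.219).

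ENSMUST00000049149.14, a long transcript of 14888 bases, was the other rise. It had 49.7, 49.4, 52.6 and 40.4 TPM in WT IR libraries 1 to 4, against 23.7, 24.2, 24.7 and 23.8 TPM in WT sham libraries 1 to 4. The sham libraries lay within 1 TPM of each other and every WT IR library was above them. The fold was 1.9 (log2 fold change 0.93, SE 0.07, edgeR adjusted p = 4.79e-05). KO livers had 46.1 ± 5.39 TPM after IR and 23.8 ± 2.8 TPM after sham, against 48 ± 5.28 and 24.1 ± 0.448 TPM in WT livers (SD, n = 4 each). The edgeR log2 fold change in KO livers was 0.59 (SE 0.07, adjusted p = 0.000138). The difference from WT of -0.34 (SE 0.1) did not pass by edgeR (adjusted p = 0.183) and passed by DESeq2 (adjusted p = 0.0313). With library totals alone the difference was -0.096 (edgeR adjusted p = 0.808).

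ENSMUST00000031183.2, of 2573 bases, was the fall with the smallest p. It had 61.6, 46.3, 41.2 and 47.9 TPM in WT IR libraries 1 to 4, against 243, 197, 152 and 184 TPM in WT sham libraries 1 to 4. All WT IR libraries were below all WT sham libraries, and WT sham 1 was the highest of all 8. The level was 4.12-fold lower after IR (log2 fold change -2.04, SE 0.17, edgeR adjusted p = 4.79e-05). KO livers had 47.8 ± 7.63 TPM after IR and 209 ± 4.28 TPM after sham (SD, n = 4 each). The edgeR log2 fold change in KO livers was -2.49 (SE 0.17, adjusted p = 3.79e-06). The difference from the WT response of -0.45 (SE 0.23) did not pass (edgeR adjusted p = 0.501). With library totals alone it was -0.21 (edgeR adjusted p = 0.723).

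ENSMUST00000010795.4, of 1689 bases, was the other fall. It had 79.7, 85.4, 92.9 and 81.6 TPM in WT IR libraries 1 to 4, against 328, 289, 213 and 219 TPM in WT sham libraries 1 to 4. The WT IR libraries were close together and the sham libraries ranged more widely, with no overlap. The level was 3.24-fold lower after IR (log2 fold change -1.69, SE 0.16, edgeR adjusted p = 0.000105). KO livers had 164 ± 29.5 TPM after IR and 297 ± 22.9 TPM after sham (SD, n = 4 each). The edgeR log2 fold change in KO livers was -1.21 (SE 0.16, adjusted p = 0.000172). The difference from the WT response of 0.48 (SE 0.22) did not pass (edgeR adjusted p = 0.44). With library totals alone it was 0.72 (edgeR adjusted p = 0.112). Without WT sham 1 the log2 fold changes of these 4 transcripts in WT were 1.68 for ENSMUST00000016168.8, 0.91 for ENSMUST00000049149.14, -1.92 for ENSMUST00000031183.2 and -1.57 for ENSMUST00000010795.4, each still past the threshold. Without WT sham 4 they were 1.79 for ENSMUST00000016168.8, 0.9 for ENSMUST00000049149.14, -2.09 for ENSMUST00000031183.2 and -1.79 for ENSMUST00000010795.4, also past the threshold. Since these 4 were chosen for their small p with all libraries, passing again is no independent support.

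**Figure D5:**
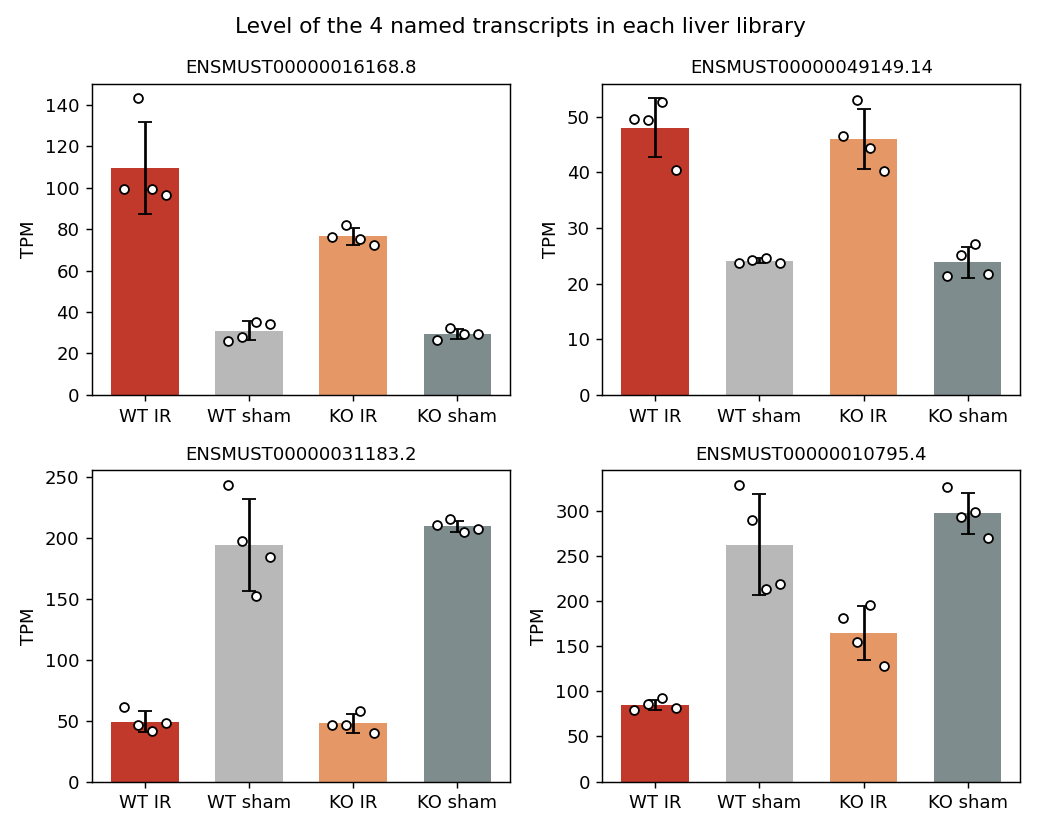
Points are the TPM of ENSMUST00000016168.8 and ENSMUST00000049149.14 (top, higher after IR) and of ENSMUST00000031183.2 and ENSMUST00000010795.4 (bottom, lower after IR) in single libraries, with bars for the group means and error bars for the SD over 4 libraries. In each panel the 4 WT IR libraries do not overlap the 4 WT sham libraries.

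The response of 22 of the 839 transcripts (2.62%) differed between KO and WT livers by the test of the difference itself, against 0.33% of all transcripts tested (edgeR adjusted p under 0.05). Of these 22, 13 moved further in the same direction in KO, 4 moved less far and 5 moved in the opposite direction. This count depended on the processing and on the libraries included. It was lower than 22 whichever library was left out, other than KO IR 3. Each fit without 1 library also tested more transcripts, 37295 to 37698 in place of 36041. The counts below therefore do not single out particular libraries as the source. The KO minus WT difference was positive in 9 and negative in 13 of the 22, and with library totals alone it was positive in 22 and negative in 8 of 30. DESeq2 counted 136 of the 839 and the filter of 10 CPM in 4 libraries 83. Over all transcripts tested, the counts were 1028 of 33693 by DESeq2, 451 of 7445 under that filter and 192 of 36041 with library totals alone. The 7445 need not hold all of the 839. Without KO IR 3 the count among the 839 was 57, and it was 10 when KO sham 2, KO IR 2 or either the first or the fourth WT IR library was left out. It was also lower by over 1.5 times without KO sham 3 (9), WT IR 2 (11), WT sham 3 or KO sham 4 (12 each), WT IR 3 or KO sham 1 (13 each) and WT sham 2, WT sham 4 or KO IR 1 (14 each). The part in it of the KO IR library totals and scaling factors given above was not tested beyond this. The WT libraries enter both tests, so a larger share among the 839 is not independent of how they were chosen. A difference that misses the threshold in the other 817 does not show that the genotypes responded alike.

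How many transcripts were called depended on the model. A fit on only the 8 WT libraries, which has 6 residual degrees of freedom in place of 12, called 299 of 31541 tested, with 194 higher and 105 lower. DESeq2 called 1819 of 30591 tested, with 1029 higher and 790 lower, and 825 of the 839 were among them with the same direction. Of the 839, 342 (227 rises and 115 falls) were called in each of the 16 fits that left out 1 library, and 223 (155 rises and 68 falls) also by DESeq2 and with only the 8 WT libraries. Rises made up 61.1% of the calls in the main fit and 70% with library totals alone. When the fit was repeated on only the 7445 transcripts of at least 10 CPM in 4 libraries, they made up 48.3% (589 higher and 630 lower). In the main fit the highest quintile by level, from 8.73 CPM upward, held 334 rises and 216 falls. Whether rises or falls were the more numerous therefore depended on the filter applied before the fit.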

How the data were processed

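Reads were trimmed with Trimmomatic and quantified with kallisto on mm10, per the submitters' processing notes, which give no versions. The files hold, per the file headers, lengths, estimated counts and TPM per transcript, which are the authors' deposited kallisto output. The deposited estimated counts were tested after rounding to whole numbers, and the deposited TPM values were used to describe levels. Transcripts passing filterByExpr (36041 of 111462) were fitted with TMM scaling and robust dispersion in edgeR 4.0.16 under R 4.3.3, with 1 coefficient per group over 16 libraries. The contrast was WT IR minus WT sham, with 12 residual degrees of freedom and Benjamini-Hochberg adjustment over all transcripts tested, and DESeq2 1.42.0 was an alternative. CPM values used the TMM factors, except in the filter of 10 CPM in 4 libraries, which came before that scaling. Log2 CPM used a prior count of 2. The standard errors given were computed from the test, as the absolute log2 fold change divided by the square root of its F statistic. Exact permutation tests over 70 arrangements used scipy 1.17.1.

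Named transcripts are the 2 rises and the 2 falls with the smallest p among those of at least 10 CPM on average over the 8 WT libraries. This rule, the alternatives and the choice of samples were set with earlier results of these data known. Sums per gene, gene lists, cell type markers and acetylation peaks at responding genes had been planned and were not analysed here, because no table pairing the transcript identifiers with genes was used. Library pairs within a group differed by 26.4 to 104 times the variance of counting noise, so none was treated as a duplicate. Totals of the WT libraries were 42.8 to 44.6 M estimated counts, and the standard errors hold counting error and the spread between libraries together. kallisto divides reads among similar transcripts, and the 839 calls hold 826 distinct count profiles.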

Additional observations from a re-analysis of the deposited data

Results flagged for a closer look

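In 34 groups of 4 library values examined for a single extreme library, 3 held one, and chance gives about 1 in 20. ENSMUST00000016168.8 was far higher in WT IR 2, at 143 TPM, than in the other WT IR libraries. WT IR 4 had 15928 transcripts of at least 1 TPM, far below the other WT IR libraries. WT sham 1 was the lowest sham library in the share of falls, called without it, that kept their direction (83%).

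Of the transcripts called after IR in WT, 22 had a response that differed in KO livers by the test of the difference (edgeR, adjusted p under 0.05), a count that ranged from 9 to 57 without 1 library.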

How the results depend on the processing

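The 839 calls among 36041 tested became 489 of 80837 without the filter on low counts and 299 of 31541 with only the 8 WT libraries. They became 351 with an absolute log2 fold change of at least 1 and 1819 of 30591 by DESeq2. Leaving out 1 library gave 410 to 1097 calls among 37295 to 37698 tested, with 491 without WT sham 2, 490 without WT IR 1, 410 without WT IR 2 and 445 without WT IR 3. Counts within 1.5 times the 839 were found with RLE scaling (812), library totals alone (754) and, added after seeing the data, 1 transcript kept of each identical set (825). The filter of 10 CPM in 4 libraries gave 1219 calls, also within 1.5 times, but among only 7445 tested. Of the 839, 582 were among these 1219 with the same direction. The cause of these differences was not tested. The 4 named transcripts kept their direction and their call in all 24 alternatives each, with log2 fold changes of 1.62 to 1.83, 0.89 to 0.97, -2.14 to -1.92 and -1.79 to -1.57 and adjusted p up to 0.00635. They were chosen for their small p in these same libraries, so keeping the call is no independent support. The genotype difference of ENSMUST00000016168.8 passed by DESeq2 (-0.73) and at 10 CPM in 4 libraries (-0.69), and that of ENSMUST00000049149.14 passed by DESeq2 (-0.33), while those of ENSMUST00000031183.2 and ENSMUST00000010795.4 passed under none of 23 alternatives. Leaving out a WT library, added after seeing the data, kept the sign of the 3 differences in library measures, which ranged from 0.443 to 0.847 M counts, from 250 transcripts of at least 1 TPM without WT sham 2 to 638 without WT IR 4, and from -3 percentage points of TPM in the top 100 without WT IR 4 to -0.94 without WT IR 1. The 22 called transcripts whose response differed in KO became 83 at 10 CPM in 4 libraries, 136 by DESeq2, 6 with the replicate block and 9 to 57 without 1 library, added after seeing the data. Over all transcripts tested, 119 of 36041 became 451 of 7445 at 10 CPM in 4 libraries and 1028 of 33693 by DESeq2. The replicate block gave 35 of 36041, and leaving out 1 library gave 51 to 378. The replicate number as a block called 595 transcripts, 380 higher and 215 lower, 564 of them among the 839. Same-numbered WT IR and WT sham libraries had correlations of deviations of 0.03, 0.01, -0.02 and -8.9e-05, and differently numbered ones -0.0574 to 0.0511. A pairing by number was thus not seen, but correlations over all transcripts tested could miss a pairing that acts on few of them. Alternatives for gene sums, gene lists and acetylation peaks were not run. Scarce transcripts had larger standard errors and fewer calls, and the part of depth in this was not tested.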
